A study of Mus musculus with 48 samples.

Results

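The 8 genes described here are Hmgcs1, Idi1, Fdps, Sqle, Lss, Cyp51, Sc5d and Insig1, taken by symbol out of 55487 genes measured in the mouse thoracic mammary gland. Each symbol occurs on 1 row of the matrix, and all 8 genes passed the filter on low values. Hmgcs1, Idi1, Fdps, Sqle, Lss, Cyp51 and Sc5d encode enzymes of cholesterol synthesis, and Insig1 encodes a protein that restrains the pathway. The set was named for cholesterol synthesis and uptake, but no uptake gene is among its 8 members. Uptake genes were therefore followed in a separate list with regulators and efflux genes.

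Mice carried MMTV-rtTA/tet-op-Esr1, which induces the estrogen receptor alpha gene, or MMTV-rtTA/tet-op-CYP19A1, which induces aromatase, the enzyme that makes estrogens. Each model (called Esr1 and CYP19A1 below) was studied at 12 and 18 months of age after 1 week of induction and without induction. At 24 months, glands were taken without induction and after 6 and 12 months of it, and at 30 months after 18 months of it. The 16 groups of 3 libraries give 48 libraries. Uninduced mice carried the same transgenes as the induced ones. The activator rtTA, which works in the presence of doxycycline, is driven by the mouse mammary tumour virus promoter, known for its activity in mammary epithelium, while RNA came from the whole gland. A group given doxycycline without the transgenes is not analysed here, and neither are uninduced 30-month glands, so at 30 months age and length of induction cannot be told apart. The labels call the replicates biological without saying that each is a separate mouse, and the p-values below cover only the scatter among the libraries at hand. In whole tissue, fewer cells of a type and less RNA per cell cannot be told apart. Sample names at 24 and 30 months are built differently from those at 12 and 18 months. The labels do not say whether these libraries were processed apart. Any such difference could not be told apart from age where 24 months is set against 12 or 18 months.

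Cholesterol is built from acetyl-CoA through mevalonate, isoprenoid diphosphates, squalene and lanosterol. When sterols are scarce, SCAP carries the transcription factor SREBP-2 out of the endoplasmic reticulum and SREBP-2 activates the genes of the whole path. When sterols are plentiful, INSIG proteins hold SCAP back. The related factor SREBP-1c mainly drives fatty acid synthesis. In the mammary gland, fat cells and the secretory epithelium both make lipid, and milk fat globules carry cholesterol in their membrane.

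Positions of the members are given on mouse build mm10 from GENCODE M21, in which all 8 identifiers of the matrix were found with their version. Hmgcs1 (ENSMUSG00000093930.2) lies on chr13:119690379-119708260 and Idi1 (ENSMUSG00000058258.14) on chr13:8885501-8892451, both on the plus strand. Fdps (ENSMUSG00000059743.12) lies on chr3:89093588-89101959 on the minus strand, Sqle (ENSMUSG00000022351.14) on chr15:59315077-59331192 on the plus strand and Lss (ENSMUSG00000033105.12) on chr10:76531588-76557138 on the plus strand. Cyp51 (ENSMUSG00000001467.5) lies on chr5:4081145-4104746 and Sc5d (ENSMUSG00000032018.14) on chr9:42251595-42264256, both on the minus strand. Insig1 (ENSMUSG00000045294.11) lies on chr5:28071363-28078662 on the plus strand. All 8 are protein-coding genes.

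Promoter windows from 250 bases before to 50 bases after the start site were found for 6 of the 8 genes in RefSeq (build GRCm38.p6), and Sqle and Fdps were not matched. The letters searched on both strands were TCACNCCAC (sterol regulatory element, the site of SREBP), CCAAT (the site of NF-Y), GGGCGG (the GC box of Sp1) and AGGTCA (a unit of the estrogen response element). Windows are shown for Hmgcs1, which held the sterol element match, for Idi1, whose level followed that of the set most closely, and for Sc5d and Insig1, on which the comparisons below turn. Capitals mark the sterol element match and the CCAAT matches, which read ATTGG, the reverse complement, in these 4 windows.
Hmgcs1, chr13:119690101-119690400, plus strand: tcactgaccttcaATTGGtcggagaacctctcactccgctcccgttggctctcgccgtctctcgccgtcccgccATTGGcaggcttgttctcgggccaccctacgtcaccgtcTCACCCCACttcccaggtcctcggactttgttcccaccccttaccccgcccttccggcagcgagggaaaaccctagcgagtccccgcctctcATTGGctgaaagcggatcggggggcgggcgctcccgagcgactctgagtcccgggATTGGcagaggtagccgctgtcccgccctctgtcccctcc
Idi1, chr13:8885356-8885655, plus strand: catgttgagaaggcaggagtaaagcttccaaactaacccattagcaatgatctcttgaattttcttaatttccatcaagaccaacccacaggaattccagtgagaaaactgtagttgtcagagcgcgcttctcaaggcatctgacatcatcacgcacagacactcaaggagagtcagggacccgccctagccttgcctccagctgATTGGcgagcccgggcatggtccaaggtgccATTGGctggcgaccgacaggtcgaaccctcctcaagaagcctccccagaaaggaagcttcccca
Sc5d, chr9:42264251-42264550, minus strand: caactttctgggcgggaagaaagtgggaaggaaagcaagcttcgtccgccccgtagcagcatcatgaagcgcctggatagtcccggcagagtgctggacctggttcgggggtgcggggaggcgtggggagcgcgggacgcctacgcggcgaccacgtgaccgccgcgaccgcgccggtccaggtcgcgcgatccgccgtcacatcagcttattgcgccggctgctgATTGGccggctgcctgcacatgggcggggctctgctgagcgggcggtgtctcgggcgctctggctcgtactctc
Insig1, chr5:28071162-28071461, plus strand: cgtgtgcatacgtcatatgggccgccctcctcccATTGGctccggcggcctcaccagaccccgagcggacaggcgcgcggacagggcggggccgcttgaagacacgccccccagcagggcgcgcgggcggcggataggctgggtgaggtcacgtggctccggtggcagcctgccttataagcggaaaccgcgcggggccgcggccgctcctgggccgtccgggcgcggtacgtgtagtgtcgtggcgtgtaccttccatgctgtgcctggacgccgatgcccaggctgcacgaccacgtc
The sterol element letters occurred in 1 of the 6 windows, as TCACCCCAC in Hmgcs1 at position -137 from the start site (chr13:119690214-119690222). They occurred in 408 of all 32851 promoter windows of the same length (1.24%). A CCAAT box was present in all 6 windows, with 4 in Hmgcs1, 2 in Idi1 and 1 in each of the others, against 37.4% of all windows. A GC box was also present in all 6, against 35.7% of all windows. The estrogen response unit was present in Hmgcs1 at -246 and in Insig1 at -105, against 16.3% of all windows. No match of one motif overlapped a match of another in these 6 windows. These are letter matches, and whether any factor bound them was not measured.

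The members fell into levels that held in nearly every library. On the TPM scale, which corrects for transcript length, Insig1 ranged over 48 libraries from a lowest value of 10.5 through a median of 25.9 to a highest of 161 TPM. Sc5d, the sterol C5-desaturase near the end of the path, had a lowest value of 5.42, a median of 25.4 and a highest of 68.8 TPM. Hmgcs1, which makes HMG-CoA near its start, had a lowest value of 6.84, a median of 25.2 and a highest of 66.0 TPM. These abundant members changed places: Insig1 was the highest of the 8 in 24 libraries, Sc5d in 15 and Hmgcs1 in 9. Fdps, the synthase of farnesyl diphosphate, had a lowest value of 4.60, a median of 14.5 and a highest of 24.2 TPM. It lay below all 3 abundant members in 46 libraries and above all 4 remaining members in 48 of 48. Lss, the lanosterol synthase, had a median of 6.00 TPM (2.46 to 10.7), and Idi1, the isopentenyl diphosphate isomerase, had a median of 4.67 TPM (1.77 to 8.45). Sqle, the squalene epoxidase and a slow step of the path, had a median of 4.61 TPM (1.67 to 11.2), and Cyp51, the lanosterol demethylase, had a median of 4.42 TPM (2.00 to 9.61). Sqle was the lowest member in 20 libraries, Cyp51 in 20, Idi1 in 7 and Lss in 1, so the order within these 4 was not fixed. The medians of Sc5d, Hmgcs1 and Insig1, and those of Cyp51, Sqle and Idi1, differed by less than the spread of each over libraries. The lowest values of Insig1, Sc5d, Hmgcs1, Idi1 and Sqle came from Esr1 replicate 3 at 30 months, with 50.3% of TPM on ribosomal RNA. Those of Fdps, Lss and Cyp51 came from CYP19A1 replicate 2 at 12 months after 1 week of induction, with 49.8%.

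**Figure D1:**
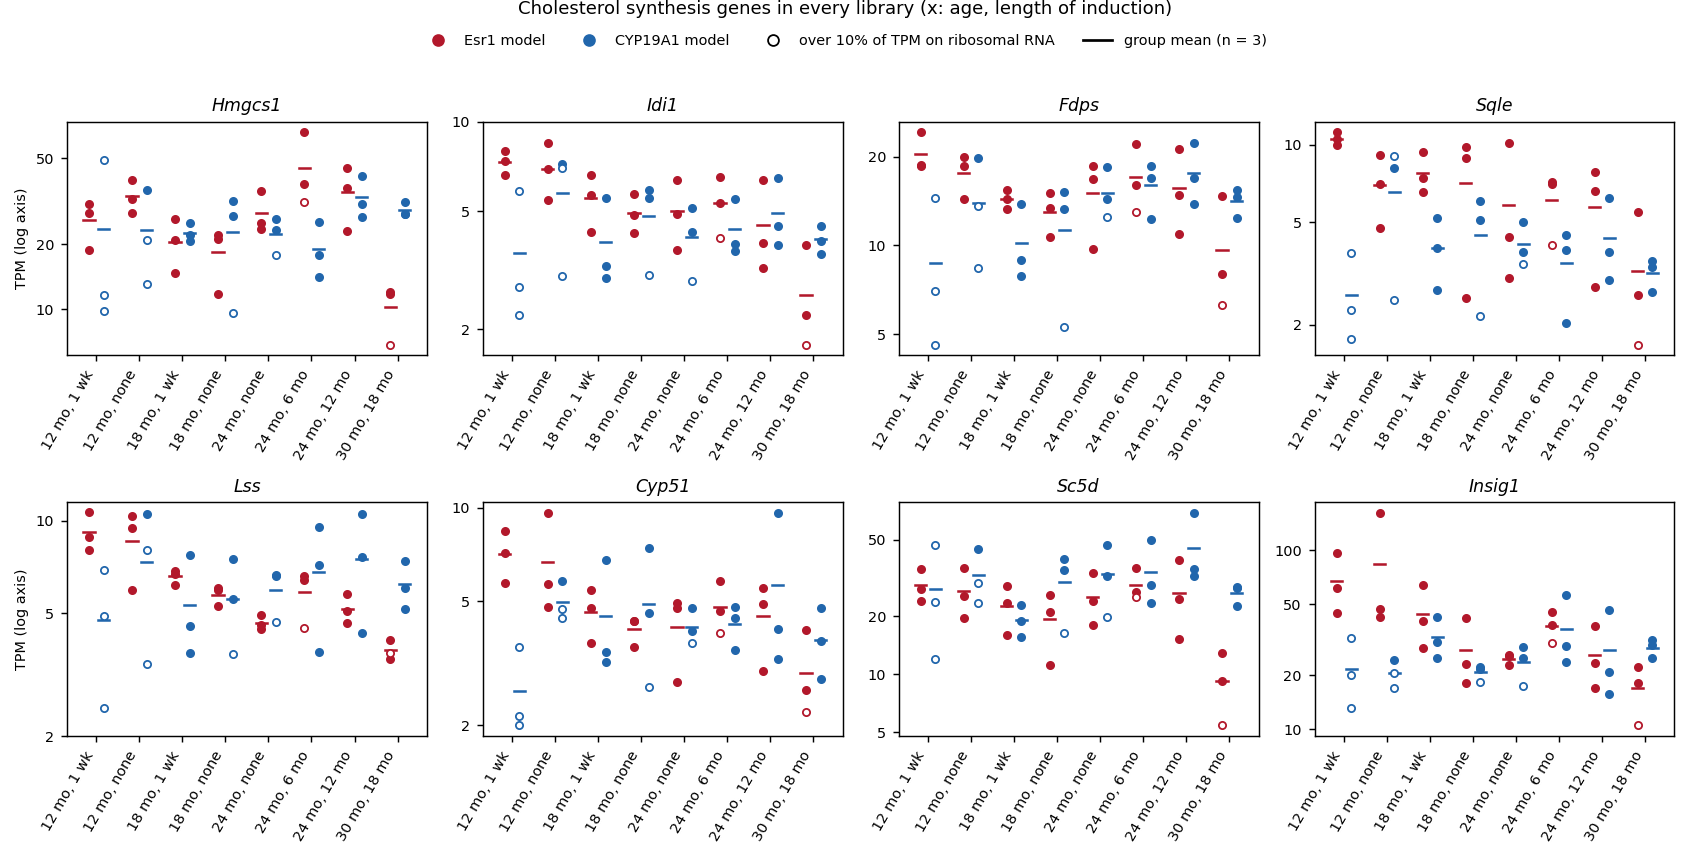
TPM (log axis) of each of the 8 genes in every library, by age and length of induction, with Esr1 libraries in red to the left of CYP19A1 libraries in blue, bars at group means of 3 libraries and open symbols for libraries with over 10% of TPM on ribosomal RNA. Hmgcs1 and Sc5d are low in the Esr1 libraries at 30 months (6.84 to 12.1 and 5.42 to 12.96 TPM), and 1 uninduced Esr1 library at 12 months carries the highest Insig1 value (161 TPM).

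Group means spread over 2.35-fold (Fdps) to 4.94-fold (Sc5d). Idi1, Fdps, Sqle, Lss and Cyp51 all had their highest group mean of deposited TPM in Esr1 glands at 12 months after 1 week of induction. There Sqle averaged 10.6 TPM and Fdps 20.5 TPM. Insig1 was highest in uninduced Esr1 glands at 12 months (83.3 TPM), Hmgcs1 in Esr1 glands at 24 months after 6 months of induction (45.2 TPM), and Sc5d in CYP19A1 glands at 24 months after 12 months of induction (45.5 TPM). Hmgcs1, Idi1, Lss, Sc5d and Insig1 were lowest in Esr1 glands at 30 months, and Fdps, Sqle and Cyp51 in CYP19A1 glands at 12 months after 1 week of induction. This order depended on the scale of the libraries. After median-of-ratios rescaling, Idi1, Fdps, Lss, Cyp51 and Sc5d were highest in uninduced CYP19A1 glands at 12 months (Fdps 17.4 and Sc5d 43.7 rescaled TPM), while Sqle, Insig1 and Hmgcs1 kept their highest group. Of those uninduced CYP19A1 libraries, replicate 1, with 67.2% ribosomal RNA, held the highest rescaled value of each of these genes. In log2 of rescaled TPM + 1, Cyp51 was at 3.95 there, against 2.39 and 2.30 in replicates 2 and 3. Sc5d was at 6.19, against 5.07 and 4.77. The lowest group stayed the same for Hmgcs1, Idi1, Sc5d and Insig1. It became uninduced Esr1 glands at 24 months for Lss, CYP19A1 glands at 18 months after 1 week for Fdps, CYP19A1 glands at 24 months after 6 months for Sqle and Esr1 glands at 30 months for Cyp51. The median coefficient of variation between the 3 libraries of a group ran from 19.5% (Lss) to 37.6% (Sqle), which sets what a comparison of 3 against 3 libraries can detect.

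Ribosomal RNA reads, taken as the summed TPM of the genes CT010467.1, AY036118 and Lars2, made up 0.0159% to 67.2% of TPM (median 0.0752%). This sum stands in for ribosomal RNA, which was not measured in another way. The share exceeded 10% in 9 libraries, among them all 3 CYP19A1 libraries at 12 months with 1 week of induction. TPM of all other genes shrink in such a library. Factors that bring 10110 broadly expressed genes to a common scale ran from 0.326 to 1.399. Fitted changes below are log2 changes of TPM + 1 from 1 limma model of all 48 libraries, over 20209 genes, with Benjamini-Hochberg adjustment within each comparison and a threshold of 0.05. Defining markers of fat (Adipoq, 184 to 985 TPM) and luminal epithelium (Krt8, 15.96 to 164 TPM) were present in all libraries. Skeletal muscle markers were also high, with a summed level of 141 to 35546 TPM, and their part in the results was not tested.

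Of the 24 comparisons, 23 called 0 of the 8 members and 1 called a single member, Sc5d, with its lower level in the Esr1 model after long induction. At an unadjusted p under 0.05 limma gave 0 members in 15 comparisons and 1 to 3 members in the other 9. The share of all genes called is given beside each count. Many comparisons share groups, so they are not independent of each other.

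Induction itself gave no called member. In Esr1 glands with 1 week of induction at 12 months, Sqle was at 11.2, 9.96 and 10.5 TPM, against 7.0, 9.15 and 4.75 TPM in uninduced glands. The 3 induced values lay above the 3 uninduced ones, as did those of 10.1% of all genes in that direction, and the log2 change was 0.57 (SE 0.41, adjusted p = 0.754, limma). At 18 months Sqle was at 7.39, 9.38 and 6.52 TPM after 1 week of induction, against 8.90, 9.81 and 2.53 TPM without it, and the values overlapped. Lss was at 6.17, 6.73 and 6.88 TPM after that week, against 6.03, 5.95 and 5.28 TPM without it, with no overlap, as for 4.26% of all genes in that direction, and a log2 change of 0.17. Insig1 was at 40.4, 64.0 and 28.4 TPM after that week, against 23.2, 18.1 and 41.9 TPM without it, with overlap, and its log2 change of 0.66 (SE 0.42, adjusted p = 1.0, limma) was the highest of any member in the 4 Esr1 inductions. Over 12 and 18 months of age with 1 week of induction and 24 months with long induction, the averaged Esr1 response of the 8 genes ran from 0.06 (Idi1) to 0.31 (Sqle) in log2, with a median of 0.16 beside 0.13 for all genes. In that average 0.0% of genes were called by limma, while 1028 genes (5.09%), none of them a member, had an unadjusted p under 0.05. For single Esr1 comparisons, 0.0099% of genes were called after 1 week at 12 months, 0.0% after 1 week at 18 months, 0.0% after 6 months and 0.00495% after 12 months of induction. Where none was called, 1.25% (18 months, 1 week) and 1.16% (6 months) of all genes had an unadjusted p under 0.05. At 12 months luminal markers had positive changes in 8 of 8 (median 0.70), basal markers in 5 of 5 (median 0.88) and milk genes in 7 of 7 (median 0.79) after the week, none of them called. The median of all genes was 0.22 there. Skeletal muscle markers were positive in 0 of 7 (median -2.46) and brown adipocyte markers in 0 of 5 (median -1.87), with 0 called. Summed luminal markers were 693 to 961 TPM after induction, against 313 to 743 TPM without it. The part of these cell types in the Sqle values was not tested.

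After 6 months of Esr1 induction Hmgcs1 and Insig1 had the largest fitted values of the 8. Hmgcs1 was at 66.0, 38.0 and 31.5 TPM after 6 months, against 23.6, 25.0 and 35.3 TPM in uninduced 24-month glands (log2 change 0.63, SE 0.42, adjusted p = 1.0, limma). Insig1 was at 45.1, 38.5 and 30.4 TPM, against 22.8, 25.7 and 26.1 TPM (log2 change 0.58, SE 0.42, adjusted p = 1.0, limma). The Insig1 groups did not overlap, which held for 1.31% of all genes in that direction, and those of Hmgcs1 did. After 12 months of induction Insig1 was at 23.4, 37.8 and 17 TPM, on both sides of the uninduced values.

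In the CYP19A1 model after 1 week at 12 months, all 8 log2 changes were negative, from -0.96 (Sqle) to -0.00 (Insig1), with a median of -0.53 beside -0.32 for all genes. Sqle was at 1.75, 2.27 and 3.78 TPM after induction, against 2.48, 8.14 and 9.05 TPM in uninduced glands (log2 change -0.96, SE 0.41, adjusted p = 0.548, limma). Cyp51 was at 2.15, 2.00 and 3.57 TPM, against 4.72, 5.81 and 4.41 TPM (log2 change -0.76, SE 0.30, adjusted p = 0.548, limma). The Cyp51 groups did not overlap, as for 1.36% of all genes in that direction. No gene passed here (0.0%), and 1370 genes (6.78%) had an unadjusted p under 0.05, Sqle and Cyp51 among them. All 3 induced libraries and 2 of the 3 uninduced ones in this comparison exceed 10% ribosomal RNA. Without uninduced replicate 1, the library with 67.2% ribosomal RNA, 5 members were called lower (Idi1, Fdps, Sqle, Lss and Cyp51), but so were 61.4% of all genes. After rescaling, the one-way pattern was lost: 6 changes were negative, from -0.67 (Sqle) to -0.01 (Sc5d), those of Hmgcs1 (0.14) and Insig1 (0.38) were positive, and 0 members were called. On the deposited scale luminal markers were negative in 8 of 8 (median -0.88), with sums of 101.3 to 210 TPM after induction, against 81.8 to 650 TPM without it. Basal markers (median -1.27) and milk genes (median -1.28) were also negative, with 0 called in each list. Skeletal muscle markers were positive in 7 of 7 (median 0.43), also with 0 called, and the part of these cells was not tested.

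The remaining CYP19A1 inductions gave medians closer to 0 and no called member. The median of the 8 genes was -0.07 after 1 week at 18 months, 0.06 after 6 months and 0.22 after 12 months at 24 months of age, beside 0.09, -0.01 and 0.12 for all genes. The shares of all genes called were 0.0%, 0.0% and 0.0198% in these, with 1.46% and 1.29% at an unadjusted p under 0.05 in the comparisons that called none. Insig1 was at 30.8, 25.2 and 42.4 TPM after 1 week at 18 months, against 18.3, 22.2 and 21.9 TPM without induction (log2 change 0.61, SE 0.42, adjusted p = 1.0, limma). Those groups did not overlap, as for 2.12% of all genes. Hmgcs1 was at 41.6, 26.8 and 30.6 TPM after 12 months of induction, against 26.0, 23.2 and 17.9 TPM (log2 change 0.53, adjusted p = 1.0, limma), again without overlap, as for 6.78% of all genes. Averaged over the CYP19A1 inductions, the members ran from -0.38 (Sqle) to 0.30 (Insig1), with 0.0% of genes called and 232 genes (1.15%), no member among them, at an unadjusted p under 0.05.

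Whether the models responded unequally was tested directly. For 1 week of induction the Sqle response was 0.94 higher in log2 in Esr1 than in CYP19A1 glands (SE 0.41, 95% interval 0.10 to 1.78, adjusted p = 0.548, limma), with 0.0% of genes called and 1297 (6.42%) at an unadjusted p under 0.05. Without the library with 67.2% ribosomal RNA the Sqle difference was 1.19 (adjusted p = 0.0296), while 34.2% of all genes were then called in that direction. Epithelial lists differed the same way, with luminal markers positive in 8 of 8 (median 1.098), basal markers in 5 of 5 (median 1.46) and milk genes in 7 of 7 (median 1.91), and 0 called in each. The median of all genes was 0.30, and skeletal muscle markers were positive in 0 of 7 (median -1.93), with 0 called. The part of these cell types in the Sqle difference was not tested. For long induction at 24 months the 8 differences ran from -0.18 (Idi1) to 0.31 (Hmgcs1), again with 0.0% of genes called, 236 (1.17%) at an unadjusted p under 0.05 and no member among them.

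**Figure D2:**
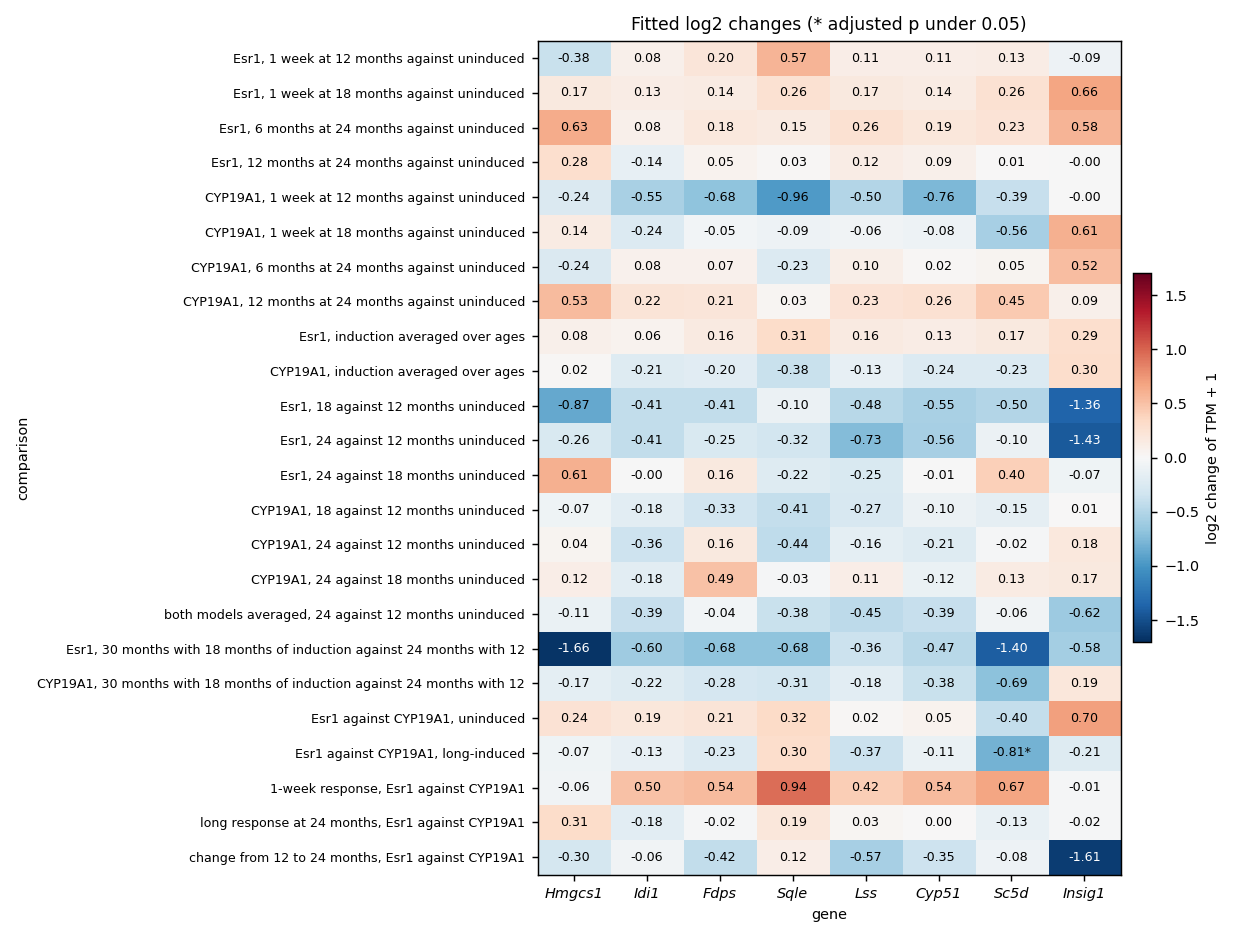
Fitted log2 change of TPM + 1 for each of the 8 genes (columns) in the 24 comparisons (rows), with the first named group over the second and a star for an adjusted p under 0.05. Only Sc5d in Esr1 against CYP19A1 long-induced glands carries a star (-0.81), and the largest negative values are Hmgcs1 in Esr1 glands at 30 against 24 months (-1.66) and Insig1 in the Esr1 minus CYP19A1 difference of the change between 12 and 24 months (-1.61).

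In uninduced Esr1 glands all 8 members had negative log2 changes at 18 and at 24 months, each set against 12 months, and none was called. Insig1 was at 22.8, 25.7 and 26.1 TPM at 24 months, against 161, 42.1 and 46.9 TPM at 12 months. All 24-month values lay below all 12-month ones, as for 8.61% of all genes in that direction, and the log2 change was -1.43 (SE 0.42, adjusted p = 0.147, limma). It was -0.82 without the 12-month library at 161 TPM, so that 1 library moves the value by over 1.5 times. At 18 months Insig1 was at 23.2, 18.1 and 41.9 TPM, again all below the 12-month values, as for 4.17% of all genes. Its log2 change there was -1.36 (adjusted p = 0.813, limma), and -0.75 without the same library. Hmgcs1 (22.0, 21.2 and 11.8 TPM at 18 months, against 39.9, 28.0 and 32.5 TPM at 12 months) and Cyp51 (4.34, 4.34 and 3.58 TPM, against 9.60, 5.69 and 4.81 TPM) did not overlap either. Lss was at 4.45, 4.93 and 4.59 TPM at 24 months, against 10.3, 9.46 and 5.97 TPM at 12 months (log2 change -0.73, SE 0.31, adjusted p = 0.491, limma), without overlap. The median of the 8 genes at 24 against 12 months was -0.37 beside -0.08 for all genes, and 0.574% of all genes were called. At 18 against 12 months it was -0.49 beside 0.01, with 0.0% called, and at 24 against 18 months it was -0.00 beside -0.07, with 0.336% called. In that last comparison Hmgcs1 was higher in all 24-month libraries, as for 3.71% of all genes, and Lss lower in all, as for 3.59%. At 18 against 12 months 558 genes (2.76%) had an unadjusted p under 0.05, Insig1 and Hmgcs1 among them.

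In uninduced CYP19A1 glands the same age comparison gave members between -0.44 (Sqle) and 0.18 (Insig1), with a median of -0.09 beside 0.22 for all genes and 4.24% of genes called. Of those 857 genes 844 were higher, 67 genes were called after median-of-ratios rescaling and 7 without the libraries over 10% ribosomal RNA, and 7 of 7 skeletal muscle markers were called higher. Insig1 was at 28.9, 25.2 and 17.6 TPM at 24 months, against 17.1, 24.4 and 20.7 TPM at 12 months. The difference between models in the 12-to-24-month change of Insig1 was -1.61 (SE 0.60, 95% interval -2.82 to -0.40, adjusted p = 0.766, limma), with 0.0396% of genes called, so the models were not shown to differ. It was -0.999 without the Esr1 library at 161 TPM. At 18 against 12 months and at 24 against 18 months the CYP19A1 medians were -0.16 and 0.11 beside 0.18 and 0.05 for all genes, with 0.0099% and 0.0693% of genes called.

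Averaged over both models, 24 against 12 months gave 0 called members of 8, with 4.68% of all genes called and a median of -0.38 beside 0.07 for all genes. This count depended on the scale of the libraries. After median-of-ratios rescaling, Idi1 (-0.51, adjusted p = 0.0277, limma) and Lss (-0.57, adjusted p = 0.0193) were called lower, against 4.32% of all genes called lower. After rescaling to the protein-coding total, Cyp51 (-0.61, adjusted p = 0.0471, limma) joined Idi1 and Lss, against 5.32% called lower. Without uninduced CYP19A1 replicate 1 at 12 months, Lss alone was called (-0.65, adjusted p = 0.0434), against 6.12% called lower. On the deposited scale 832 genes were higher and 114 lower, against 972 and 873 after median-of-ratios rescaling and 704 and 1075 after rescaling to the protein-coding total. Median-of-ratios rescaling moved the median of all genes by -0.08 and the protein-coding total by -0.15 in this comparison.

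Fatty acid synthesis genes, which partly share the SREBP factors, were called lower at 24 against 12 months where the cholesterol genes were not. Age cannot be told apart there from any difference that goes with the form of the sample names. At 24 against 12 months in uninduced Esr1 glands 7 of 14 were called lower, with a list median of -1.88 beside -0.37 for the 8 members, a difference that was not itself tested. Elovl6, a fatty acid elongase, changed by -3.30 (adjusted p = 0.00318), Fasn, the fatty acid synthase, by -2.85 (adjusted p = 0.00713) and Acss2, an acetyl-CoA synthetase, by -2.31 (adjusted p = 0.00111, all limma). In 6 fits that each left out 1 library, Acly and Me1 each lost the call in 4 (adjusted p up to 0.214 and 0.197), Fasn in 1 (0.0693) and Elovl6 in 1 (0.0533), while Acss2, Acaca and Slc25a1 kept it in all 6 (limma). The summed level of the 14 genes was 1114 to 1629 TPM at 24 months, against 3605 to 7401 TPM at 12 months. Of 15 other cholesterol synthesis genes 0 were called (median -0.15), and of 15 tested regulators, uptake and efflux genes 0 were called (median -0.07). The most abundant of these were Ebp, the sterol isomerase (-0.32), Pmvk, the phosphomevalonate kinase (-0.61), Srebf1, which encodes SREBP-1 (-0.75), and Npc2, a lysosomal sterol carrier (-0.07). In CYP19A1 glands at 24 against 12 months 0 of the 14 fatty acid synthesis genes were called (median -0.73). Luminal markers were called in 0 of 8 (median -0.60) and white adipocyte markers in 0 of 8 (median -0.10) in the Esr1 age comparison. Summed luminal markers were 188 to 697 TPM at 24 months, against 313 to 743 TPM at 12 months, and summed white adipocyte markers 1965 to 3620 TPM, against 3229 to 4472 TPM. Milk genes were negative in 7 of 7 (median -4.03), with sums of 51.7, 56.6 and 48937 TPM at 24 months, against 7458 to 11305 TPM at 12 months. Brown adipocyte markers had a median of -1.83, while skeletal muscle markers were positive in 7 of 7 (median 1.19) and B cell markers in 4 of 4 (median 1.89), with 0 called in each of these lists. The part of these cell types in these changes was not tested.

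**Figure D3:**
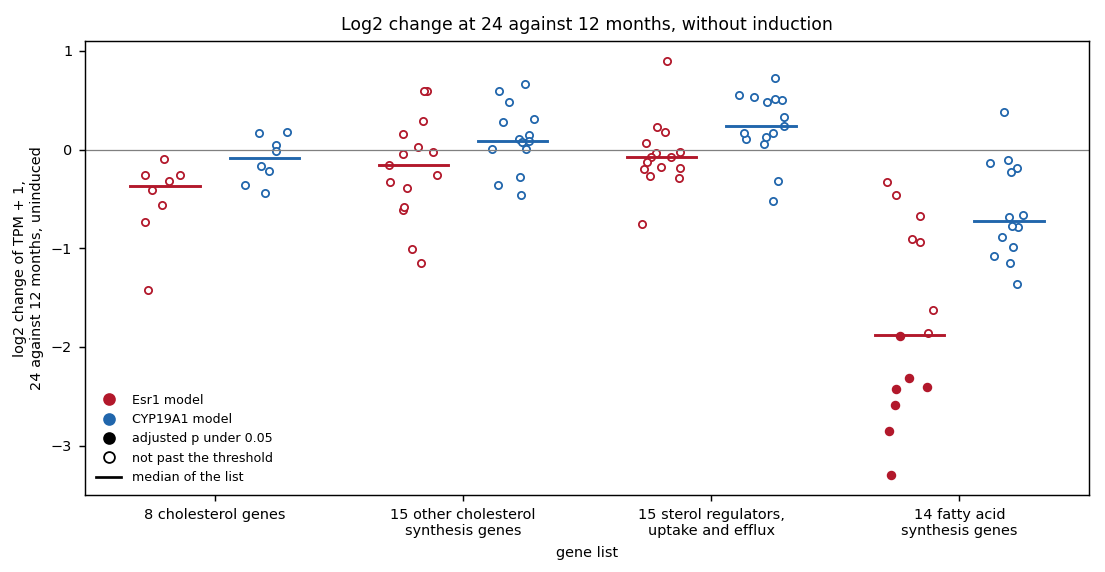
Log2 change of TPM + 1 at 24 against 12 months in uninduced glands for each gene of 4 lists, Esr1 in red left of CYP19A1 in blue, filled where the adjusted p is under 0.05, with bars at list medians. In Esr1 glands the 14 fatty acid synthesis genes have a median of -1.88 with 7 filled, and the 8 cholesterol genes a median of -0.37 with none filled.

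The oldest induced Esr1 glands held the lowest values of several members. Hmgcs1 was at 12.1, 11.8 and 6.84 TPM at 30 months with 18 months of induction, against 36.5, 45.1 and 23.1 TPM at 24 months with 12 months of it (log2 change -1.66, SE 0.42, 95% interval -2.51 to -0.82, adjusted p = 0.0659, limma). Sc5d was at 12.96, 9.25 and 5.42 TPM, against 15.2, 39.4 and 24.7 TPM (log2 change -1.40, SE 0.42, adjusted p = 0.138, limma). Lss was at 4.11, 3.56 and 3.71 TPM, against 4.66, 5.77 and 5.08 TPM. The groups of these 3 genes did not overlap, but that held for 35.6% of all genes in that direction, and the median over all genes was -0.36 beside -0.64 for the members. None passed, with 0.139% of all genes called. Replicate 3 at 30 months, which held the lowest Hmgcs1 and Sc5d values, had 50.3% of TPM on ribosomal RNA. Hmgcs1 was called when genes under 5 TPM were left out of the adjustment (adjusted p = 0.0494, 0.533% of genes lower) and without the libraries over 10% ribosomal RNA (log2 change -1.42, adjusted p = 0.0355, 0.396% lower). After median-of-ratios rescaling, which moves the median of all genes by 0.37 here, the Hmgcs1 change was -1.18 (adjusted p = 0.0923) and that of Sc5d -0.92 (adjusted p = 0.267). Lss was then no longer lower, with a mean of 5.05 rescaled TPM (SD 1.29) at 30 months, against 4.68 (SD 0.47) at 24 months. Of the other cholesterol synthesis genes 0 of 15 were called here (median -0.56), of the regulators, uptake and efflux genes 0 of 15 (median -0.46) and of the fatty acid synthesis genes 0 of 14 (median -0.52).

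Among white adipocyte markers 1 of 8 was called lower in Esr1 glands at 30 against 24 months (Lep, log2 change -4.32, adjusted p = 0.026, limma), with a list median of -0.98. Their summed level was 1738 to 2646 TPM at 30 months, against 2080 to 3582 TPM at 24 months, and none of the 8 was at 0 in any library. Summed macrophage markers were 35.6 to 45.3 TPM at 30 months, against 70.0 to 90.1 TPM at 24 months, without overlap (median change -0.90, negative in 4 of 4). Milk genes had a median of -1.92 and basal markers of -0.77, and 0 were called in these 3 lists. The part of these cell types in the Hmgcs1 and Sc5d values was not tested. In CYP19A1 glands at 30 against 24 months 0 members were called, with 0.0% of all genes called and 332 (1.64%) at an unadjusted p under 0.05, no member among them. Sc5d was at 28.3, 22.5 and 28.1 TPM at 30 months, against 68.8, 32.4 and 35.4 TPM at 24 months (log2 change -0.69, adjusted p = 0.969), without overlap, as for 21.6% of all genes.

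Between the models after long induction, Sc5d was lower in Esr1 glands. Over 9 libraries each its lowest, median and highest values were 5.42, 24.7 and 39.4 TPM in Esr1 glands, against 22.5, 29.1 and 68.8 TPM in CYP19A1 glands. The ranges overlapped, and the log2 change was -0.81 (SE 0.24, 95% interval -1.29 to -0.32, adjusted p = 0.0454, limma). This made 1 of 8 members called, beside 4.15% of all genes called in either direction and 2.97% called lower, with a median of -0.17 for the members and -0.12 for all genes. At 24 months alone, a subset chosen after the values were seen, the change was -0.47 (adjusted p = 0.602). At 30 months Sc5d was at 12.96, 9.25 and 5.42 TPM in Esr1 glands, against 28.3, 22.5 and 28.1 TPM in CYP19A1 glands. The Esr1 library at 5.42 TPM had 50.3% of TPM on ribosomal RNA. The call was also lost in 13 of 18 fits that each left out 1 library, the change lying between -0.92 and -0.70 and the adjusted p between 0.0234 and 0.136 over all 18.

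The other members did not pass between long-induced models, and Sqle alone had a positive change (0.30, SE 0.24, 95% interval -0.18 to 0.79, adjusted p = 0.555, limma). Lss was at 3.56, 4.66 and 6.62 TPM (lowest, median and highest) in Esr1 glands, against 3.74, 7.19 and 10.5 TPM in CYP19A1 glands (log2 change -0.37, adjusted p = 0.279, limma). Fatty acid synthesis genes were called lower in 9 of 14, with a median of -1.06, among them Fasn (-2.06, adjusted p = 5.25e-05, limma) and Scd1, the stearoyl-CoA desaturase (-1.39, adjusted p = 0.00167). Of these 9, Thrsp lost its call in 12 of 18 fits that each left out 1 library (adjusted p up to 0.124), and Acly and Slc25a1 each in 2 (up to 0.0611 and 0.0573, limma). Milk genes were called higher in 6 of 7, with sums of 226 to 27480 TPM in Esr1 glands, against 100.58 to 3835 TPM in CYP19A1 glands. Of the other cholesterol synthesis genes 0 of 15 were called (median -0.17), and of the regulators, uptake and efflux genes 0 of 15 (median -0.20). Luminal markers were called in 0 of 8 (median 0.46), with sums of 171 to 595 TPM in Esr1 glands, against 135 to 485 TPM in CYP19A1 glands. White adipocyte markers were called in 0 of 8 (median -0.36), with sums of 1738 to 3582 TPM in Esr1 glands, against 2022 to 4496 TPM in CYP19A1 glands. Of the brown adipocyte markers 1 of 5 was called lower (Ucp1, -3.36, adjusted p = 0.0162). The part of these cell types in the Sc5d result was not tested.

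A ratio within a library does not depend on its scale. The ratio of Sc5d to Sqle, chosen after the values were seen and given without a test, was 2.38 to 6.15 (median 3.76) in 9 long-induced Esr1 libraries, against 6.52 to 12.8 (median 9.23) in 9 long-induced CYP19A1 libraries. It was the only 1 of the 28 ratios between members (3.57%) in which the long-induced models did not overlap, and it was singled out for that. In uninduced glands the models overlapped in all 28, and this ratio was 2.14 to 7.68 (median 4.12) in Esr1 libraries, against 3.28 to 9.49 (median 6.81) in CYP19A1 libraries. The ratio of Sc5d to Fdps, for example, was 0.866 to 1.92 in long-induced Esr1 libraries, against 1.71 to 3.09 in long-induced CYP19A1 libraries.

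**Figure D4:**
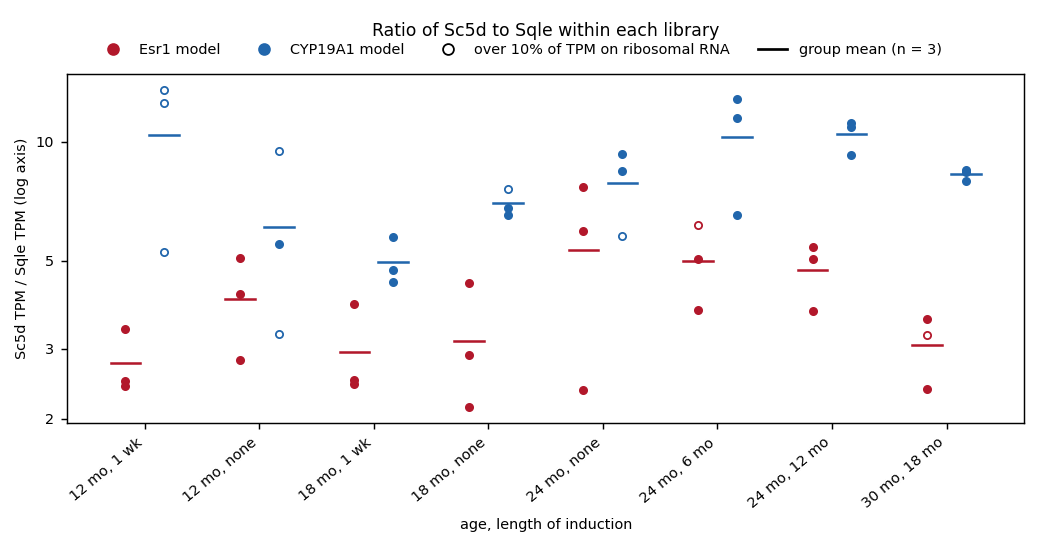
Sc5d TPM divided by Sqle TPM (log axis) in every library, by age and length of induction, Esr1 in red left of CYP19A1 in blue, with bars at group means of 3 libraries and open symbols for libraries over 10% ribosomal RNA. In the long-induced groups all Esr1 libraries lie at or below 6.15 and all CYP19A1 libraries at or above 6.52.

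In uninduced glands the models gave 0 called members of 8, with 2.95% of all genes called. Insig1 had its lowest, median and highest values at 18.1, 26.1 and 161 TPM in Esr1 glands, against 17.1, 21.9 and 28.9 TPM in CYP19A1 glands (log2 change 0.70, SE 0.24, adjusted p = 0.115, limma), and in the 18- and 24-month groups alone, also chosen after the values were seen, the change was 0.20. Sc5d was at 11.1, 24.0 and 35.6 TPM in Esr1 glands, against 16.4, 32.4 and 46.8 TPM in CYP19A1 glands (log2 change -0.40, adjusted p = 0.378). Sc5d was called lower in Esr1 glands after median-of-ratios rescaling (-0.58, adjusted p = 0.0334), after rescaling to the protein-coding total (-0.73, adjusted p = 0.00652) and without the libraries over 10% ribosomal RNA (-0.80, adjusted p = 0.03). These settings also called 9.05%, 17.2% and 11.4% of all genes lower, and the split of 398 genes higher and 198 lower on the deposited scale became 541 and 3468 with the protein-coding total. Hsd17b7, the sterol ketoreductase, was the only 1 of 15 other cholesterol synthesis genes called in any of the 24 comparisons, and it was higher in Esr1 glands (log2 change 0.90, SE 0.18, adjusted p = 0.00171, limma). It averaged 3.43, 5.68 and 5.67 TPM at 12, 18 and 24 months in Esr1 glands, against 2.45, 1.80 and 2.41 TPM in CYP19A1 glands. Its call held in all 18 fits without 1 library (0.76 to 0.98). Luminal markers were positive in 8 of 8 between uninduced models (median 0.64, 0 called), with sums of 160 to 860 TPM in Esr1 glands, against 81.8 to 650 TPM in CYP19A1 glands. Milk genes were positive in 7 of 7 (median 3.18) and 1 was called (Glycam1, 4.84, adjusted p = 0.0149, limma). The part of these cells in the Hsd17b7, Insig1 and Sc5d differences was not tested. Of the 15 tested regulators, uptake and efflux genes 0 were called in any comparison.

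Across all 48 libraries the members varied together to unequal degrees. After median-of-ratios rescaling, the 28 pairwise correlations of log2 values ran from 0.13 (Sqle with Sc5d) to 0.75 (Idi1 with Cyp51), with a median of 0.55, and 22 had an adjusted permutation p under 0.05. The permutations exchanged all 48 libraries freely, although libraries of a group share treatment and age, so these p-values treat them as independent. Within groups, after subtracting group means, the median correlation was 0.56. With the 2 farthest libraries left out, r fell to 0.60 for Idi1 with Cyp51, and from 0.56 to 0.39 for Idi1 with Insig1. It rose to 0.16 for Sqle with Sc5d, and from 0.42 to 0.46 for Hmgcs1 with Cyp51. Idi1 correlated best with the mean of the 8 (r = 0.91), followed by Cyp51 (0.86) and Fdps (0.83), and Sqle least (0.56). Each gene is part of that mean.

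Single members were then set against 3 marker scores, giving 24 relations tested with 100000 permutations, in which 1e-05 is the smallest p possible. Sqle followed luminal epithelium markers (Pearson r = 0.75, Spearman rho = 0.73, permutation p = 1e-05 for both, adjusted 4e-05 and 8e-05). The relation was 0.75 without the 2 libraries farthest from the median score, 0.65 at 12 and 18 months, 0.76 at 24 and 30 months, 0.60 within groups and 0.83 in the 39 libraries at or below 10% ribosomal RNA. Idi1 had the next highest relation with the luminal score (r = 0.13, rho = 0.23, 0.21 at 24 and 30 months and 0.26 in the 39 libraries). It was -0.22 at 12 and 18 months and -0.19 within groups. Fdps reached 0.23 at 24 and 30 months, but was at -0.05 over all libraries, -0.09 at 12 and 18 months and -0.13 within groups. The relations of Sc5d (-0.35, adjusted permutation p = 0.0307) and Hmgcs1 (-0.29, adjusted permutation p = 0.0739) were negative.

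Sc5d followed white adipocyte markers (Pearson r = 0.66, Spearman rho = 0.71, permutation p = 1e-05 for both, adjusted 4e-05 and 8e-05). It was 0.66 without the 2 farthest libraries, 0.73 at 12 and 18 months, 0.62 at 24 and 30 months and 0.49 within groups. Sc5d also had r = 0.43 with fatty acid synthesis genes (rho = 0.28, adjusted permutation p = 0.00643 for r and 0.103 for rho; 0.28 without the 2 farthest libraries, 0.62 at 24 and 30 months and 0.56 within groups). Hmgcs1 had the next highest relation with the white adipocyte score (r = 0.53, rho = 0.56, permutation p = 7e-05 and 8e-05, adjusted 0.00024 and 0.00048; 0.50 without the 2 farthest libraries and 0.31 within groups). Lss followed fatty acid synthesis genes (r = 0.72, rho = 0.63, permutation p = 1e-05 for both, adjusted 4e-05 and 8e-05). It was 0.61 without the 2 farthest libraries, 0.86 at 12 and 18 months and 0.44 at 24 and 30 months. Idi1, Insig1 and Cyp51 were alike in this, with r of 0.66, 0.63 and 0.62, rho of 0.53, 0.47 and 0.37, and adjusted permutation p of 4e-05 for each r and 0.000624, 0.00276 and 0.03 for rho. Without the 2 farthest libraries r was 0.51, 0.50 and 0.39. At 24 and 30 months their r was only 0.28, 0.28 and 0.35. Libraries of a group share treatment and age, so the 48 points are not fully independent of each other.

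**Figure D5:**
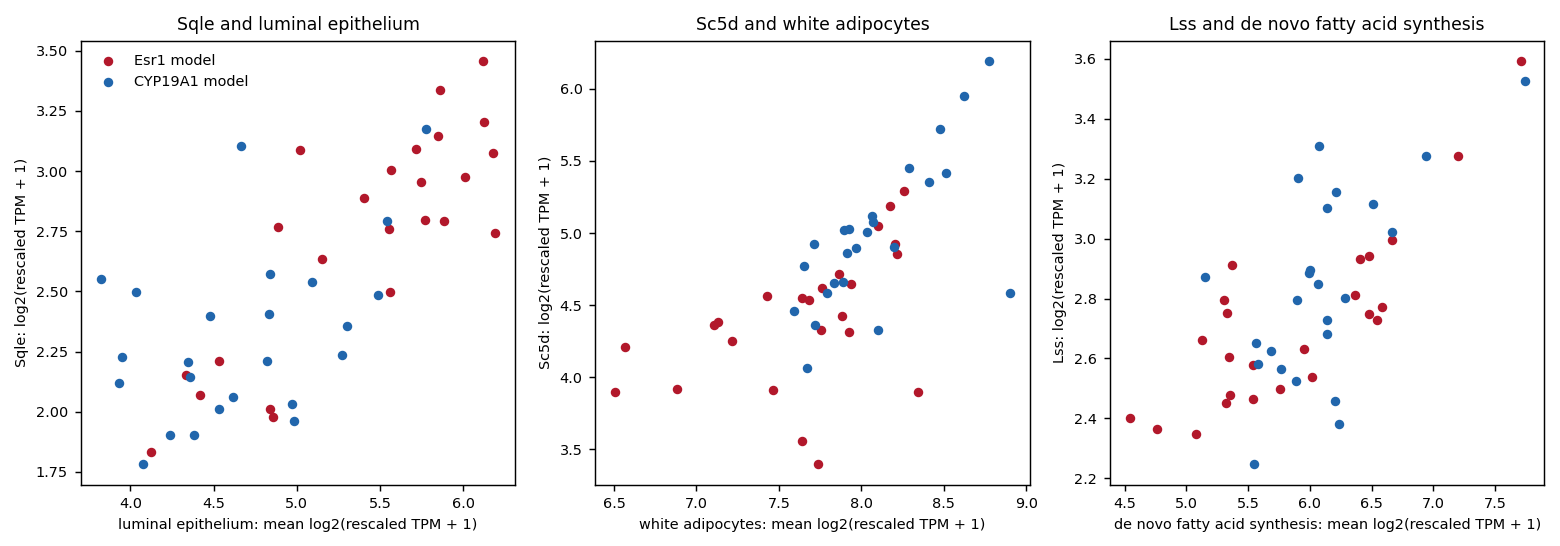
Log2 of rescaled TPM + 1 of Sqle, Sc5d and Lss (y axes) against the mean log2 of luminal epithelium markers, white adipocyte markers and fatty acid synthesis genes (x axes), 1 point per library, Esr1 in red and CYP19A1 in blue. Each gene rises with its score (r = 0.75, 0.66 and 0.72), and the highest Lss values lie at the highest fatty acid synthesis scores.

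Of 20201 other tested genes ranked by their correlation with the mean of the 8, the 10 most alike were Pmvk (r = 0.90), Nsdhl (0.88), Cyb5b (0.81), Fam241a (0.80), Dbi (0.80), Tlcd2 (0.80), Ptger3 (0.79), Taldo1 (0.79), Gss (0.79) and Pgd (0.79). Pmvk and Nsdhl encode further enzymes of cholesterol synthesis, Cyb5b is a cytochrome b5, Dbi binds acyl-CoA, and Taldo1 and Pgd act in the pentose phosphate pathway. The 100 most alike held 4 of 15 other cholesterol synthesis genes and 5 of 14 fatty acid synthesis genes. Srebf2, which encodes SREBP-2, had r = 0.12. None of the 8 luminal and 8 white adipocyte markers was among the 100.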

How the data were processed

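Total RNA of the thoracic mammary gland went through ribosomal RNA depletion and a stranded kit before single-end sequencing, per the labels' protocols. The authors deposited TPM, and the tools listed in the submitters' processing notes are FastQC 0.11.9, Trim Galore 0.6.5, STAR 2.7.9a and RSEM 1.3.1 with build mm10. The annotation release is not given in the sources used here. TPM keep no library size, so depth is unknown. The 20209 genes that reached 1 TPM in 3 or more libraries were fitted as log2(TPM + 1) with limma 3.58.1 in R 4.3.3, with 1 mean per group of 3 libraries and an intensity trend, giving two-sided p-values adjusted by Benjamini-Hochberg. The added 1 makes changes of scarce genes look smaller than ratios of TPM. In simulated data for 1 week of Esr1 induction at 12 months, on 20209 genes, 98% of 100 genes changed by a log2 of 2 and 95% of 100 changed by 3 were recovered, with 10 false calls. The changed genes were drawn from those with a mean log2(TPM + 1) over 3 in the uninduced group. The simulated scatter was that of rescaled values and was drawn separately for each gene, while the fits used deposited TPM. Shifts of a whole library were therefore not simulated, and the recovery does not cover them. Members changed by -0.38 to 0.57 in that comparison, and recovery of changes of that size was not simulated. Scores are means of log2(rescaled TPM + 1). Alternatives were the scaling, pseudocount, filter, trend, libraries and groups fitted, and a replicate block.

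The plot of changes shows all 8 members in every comparison, and the text those its statements rest on. Of the accompanying lists, genes that passed are named, up to 6 by size, or else the 2 most abundant; fatty acid synthesis genes, cell markers and the ratio of Sc5d to Sqle were picked for naming after their values were seen. The members and all lists were chosen with earlier results of these data known. Some genes of the lists are not reported here by name.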

Additional observations from a re-analysis of the deposited data

How the results depend on the processing

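Of the 24 comparisons, the number of members called kept its value under every alternative that could be fitted except in 6. Between long-induced models the 1 call (Sc5d) became 0 with a pseudocount of 5 (adjusted p = 0.0559), with no filter (0.0769), with the replicate block (0.0541), without the libraries over 10% ribosomal RNA (0.0751) and at 24 months alone (0.602, added after the values were seen), and ranged from 0 to 1 without 1 library. It was lost without replicates 2 or 3 of Esr1 at 24 months with 6 months of induction, 1 or 3 with 12 months and 2 or 3 at 30 months, and without replicates 2 or 3, 1 or 3, and 1, 2 or 3 of the same CYP19A1 groups. Between uninduced models the 0 became 1 (Sc5d) with both rescalings and without the libraries over 10% ribosomal RNA. For both models at 24 against 12 months it became 2 with median-of-ratios rescaling and 3 with the protein-coding total. In Esr1 glands at 30 against 24 months it became 1 (Hmgcs1) with the 5 TPM filter and without the libraries over 10% ribosomal RNA. Leaving out uninduced CYP19A1 replicate 1 at 12 months widened the range to 0 to 5 for 1 week in CYP19A1 glands at 12 months, 0 to 1 for both models by age (Lss) and 0 to 1 for the 1-week difference between models (Sqle). In none of the results and alternatives computed did a called direction turn, and the cause of the changed counts was not tested. Counts of all genes called moved by over 1.5 times under some alternatives: 24 to 355 against 116 (Esr1, 24 against 12 months), 3 to 1414 against 857 (CYP19A1), 383 to 1898 against 946 (both), 0 to 85 against 28 (Esr1, 30 against 24 months), 211 to 4009 against 596 (uninduced models) and 440 to 1964 against 839 (long-induced models). Median-of-ratios rescaling moved the median of all genes by over 0.1 in 13 of 24 comparisons (-0.29 to 0.37) and the protein-coding total in 12. The replicate block changed no other member call. Same-numbered libraries did not deviate together (r = -0.36 to 0.35, 8 of 24 pairs over 0.1), so the numbers were not taken as pairs. Leaving out the libraries over 10% ribosomal RNA could not be run where the CYP19A1 group with 1 week of induction at 12 months enters, since all 3 of its libraries exceed it.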
